A study of Mus musculus with 22 samples.

Results

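The genes described here encode the chaperonins, the ring-shaped machines that fold other proteins. The list named 10 genes, 8 for the subunits of the cytosolic ring (Tcp1, Cct2, Cct3, Cct4, Cct5, Cct6a, Cct7 and Cct8) and 2 for the mitochondrial pair (Hspd1 and Hspe1). Members were taken by name from the deposited UMI matrix of 14407 genes, where 9 of the 10 listed genes had a row. Cct6a was not analysed here.

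Germinal center B cells from the spleens of male C57BL/6 mice, 8 weeks old per the labels, were captured in 3 5'-end single-cell gene expression libraries. In 2 libraries, NP 1 and NP 2, mice received 100 µg NP-KLH, and cells that bound the NP hapten were sorted at day 13. In 1 library, OVA 1, mice received 100 µg ovalbumin, and all germinal center B cells were sorted, on a day not given in the sources used here. Both antigens were given into the peritoneum with 50% alum and 1 µg LPS, and no altered allele is named for any group. Nothing states how many mice were pooled or whether libraries came from separate mice. The p-values between cell classes reflect how far class differences vary across the 3 libraries, a spread that may be technical. Those of NP against OVA reflect the spread between the 2 NP libraries. Each estimate of spread also borrows from other genes.

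NP 1 held 3765 cells, NP 2 held 2104 and OVA 1 held 3004, with 20533741, 16161435 and 21412501 UMIs. Cells that had 500 or more genes and no more than 10% of UMIs from mitochondrial genes were kept (2600, 1756 and 2385 cells), and each was thinned to 2500 UMIs, which left 2338, 1602 and 2154 cells and dropped 262, 154 and 231 shallower ones. Levels are given in CPM, the UMIs of a gene scaled to a common total of thinned UMIs and summed over the cells of a class in 1 library, and intervals and errors from counts cover counting error only. All 10 germinal center B markers looked for, among them Mef2b and Rgs13, were found in each library, with summed levels between 6695 and 6767 CPM. Between 9 and 11 cell barcodes were shared by each pair of libraries, and 67 cells with 20 or more UMIs of T cell, NK cell, myeloid or erythroid genes stood apart. Of the myeloid genes, Cst3 had a UMI before thinning in 67.7% of these libraries' thinned cells, and Lyz2 in 0.952%. Of the erythroid genes, Hbb-bt had one in 17.8%.

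The cytosolic chaperonin, called CCT or TRiC, stacks its subunits in a double ring around a folding chamber and is best known for folding newly made actin and tubulin. Prefoldin hands it unfinished chains. Hspd1 (HSP60) forms the chamber of the mitochondrial chaperonin and Hspe1 (HSP10) is the lid that closes it. Several of these genes are known targets of MYC, a factor that germinal center B cells switch on in the light zone after help from T cells and that precedes renewed division in the dark zone, where CD83 is low and CXCR4 is high. HSF1, the master regulator of the heat shock response, is known in human cells to act on the shared promoter of the mitochondrial pair.

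Hspd1 and Hspe1 lie head to head on mouse chromosome 1, which puts one stretch of DNA before both genes. In RefSeq (GRCm38.p6), Hspd1 spans chr1:55077833-55088243 on the minus strand and Hspe1 spans chr1:55088148-55091317 on the plus strand, with 96 bases annotated to both genes. Between the nearer pair of start sites lie 215 bases. That interval, chr1:55087933-55088147, has a GC content of 70.2% and is printed on the plus strand because it holds the heat shock motifs. Capitals mark the run made of 1 GAANNTTC match (the core of the heat shock element, head to head) and the 2 TTCNNGAA matches (the same core, tail to tail) that overlap it.
Hspd1-Hspe1 interval: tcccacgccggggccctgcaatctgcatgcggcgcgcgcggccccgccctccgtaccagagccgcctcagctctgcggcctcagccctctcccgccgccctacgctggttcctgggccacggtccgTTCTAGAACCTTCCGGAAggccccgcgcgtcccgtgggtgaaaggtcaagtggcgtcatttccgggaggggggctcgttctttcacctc
The next window, chr1:55088306-55088335 on the plus strand, is shown because it holds the only CACGTG among the member promoters, the E-box read by MYC and MAX, in capitals.
Hspd1 E-box window: gcgcggccttttCACGTGtcccagccggcc
The last 2 windows, chr10:117063399-117063428 and chr15:31601862-31601891 on the plus strand, hold the heat shock cores found in promoters of the measured CCT subunits, also in capitals.
Cct2 heat shock head window: aggtcctgctaGAAACTTCttcacttgggg
Cct5 heat shock tail window: cgcagagtagcTTCTGGAAtcggccgctgt

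**Figure D1:**
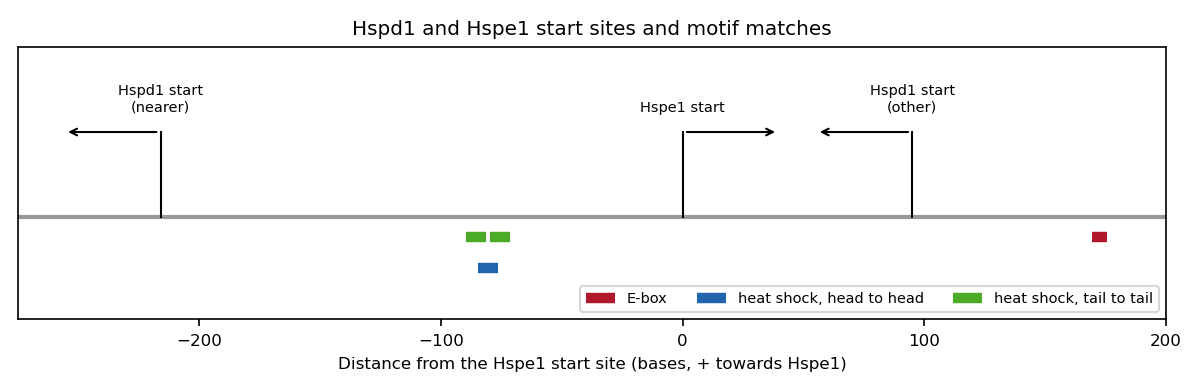
Start sites of Hspd1 and Hspe1 (arrows, direction of transcription) and motif matches (bars) by distance in bases from the Hspe1 start site. The heat shock matches lie between the Hspe1 start and the nearer Hspd1 start, and the E-box lies beyond the other Hspd1 start.

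The motifs were searched on both strands in RefSeq windows from 250 bases before to 50 bases after each start site. The table held 11 such windows for 8 of the 9 measured genes, and none for Cct4. CACGTG was in 1 of the 11 windows (Hspd1, from its other start site, 80 bases before it), against 7.15% of all 32851 windows. GAANNTTC was in 3 windows, those of Hspd1, Hspe1 and Cct2, against 7.86% of all windows. TTCNNGAA, a form added after the interval was seen, was in 3 windows, those of Hspd1, Hspe1 and Cct5, against 8.52%. The Hspd1 and Hspe1 windows share the same heat shock matches, so that 1 stretch is counted for both genes. In the Hspe1 window the GAANNTTC match lay 84 bases before the start. A match describes letters and not binding.

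The other subunit genes are spread over the genome: Tcp1 (chr17:12916329-12925067), Cct2 (chr10:117050997-117063852), Cct3 (chr3:88297135-88321766), Cct4 (chr11:22990593-23003336), Cct5 (chr15:31590800-31601846), Cct7 (chr6:85451505-85468477) and Cct8 (chr16:87483325-87495869). Tcp1 overlaps Mrpl18 and Acat3, Cct7 overlaps Pradc1 and Cct8 overlaps Usp16. The sources used here do not say whether counting used strand. Without strand, reads from the 96 bases shared by Hspd1 and Hspe1 at their 5' ends, the ends these libraries capture, cannot be told apart, nor can reads from the other overlaps. RefSeq names 5 pseudogene copies of Hspd1 and 7 copies of Hspe1, so reads of those genes may be split or lost. No copy had a row in the matrix.

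Cells were sorted into classes by marker UMIs left out of every test. Myc-positive cells had a UMI of Myc, and "S UMIs" stands for a UMI of Mcm5 or Rrm2, replication genes used as the mark of S phase. Cells with no Myc UMI after thinning are called Myc-undetected and may still express Myc. Among these, mitotic cells had at least 4 UMIs over 8 mitotic genes. Cd83-high noncycling cells, also Myc-undetected, had at least 2 UMIs of Cd83 and none of the cycle genes. Myc-positive cells with S UMIs numbered 82, 43 and 75 in NP 1, NP 2 and OVA 1, and those without numbered 63, 61 and 115. Mitotic cells numbered 201, 177 and 191, and Cd83-high noncycling cells 234, 137 and 207. Fewer transcripts per cell and fewer expressing cells in a class cannot be told apart in these sums. Where the libraries of different classes are said not to overlap, the share of all genes doing so was not counted.

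The 7 measured CCT transcripts together ran from highest in dividing classes to lowest in Cd83-high cells. Their summed level averaged 2019.7 ± 149 CPM in Myc-positive cells with S UMIs, 1969.6 ± 50.2 in mitotic cells and 1798.7 ± 32.0 in the remaining S cells (SD, n = 3 libraries here and below). It averaged 1608.1 ± 169 in Myc-positive cells without S UMIs, 1539.4 ± 39.0 in other cells and 1367.6 ± 39.6 in Cd83-high noncycling cells. The libraries of Myc-positive cells with S UMIs overlapped those of mitotic cells, and those of Myc-positive cells without S UMIs overlapped both their neighbours, S and other cells. Over all cells the sum was 1682 in NP 1, 1671 in NP 2 and 1641 in OVA 1, so the whole libraries were closer to each other than the classes were.

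**Figure D2:**
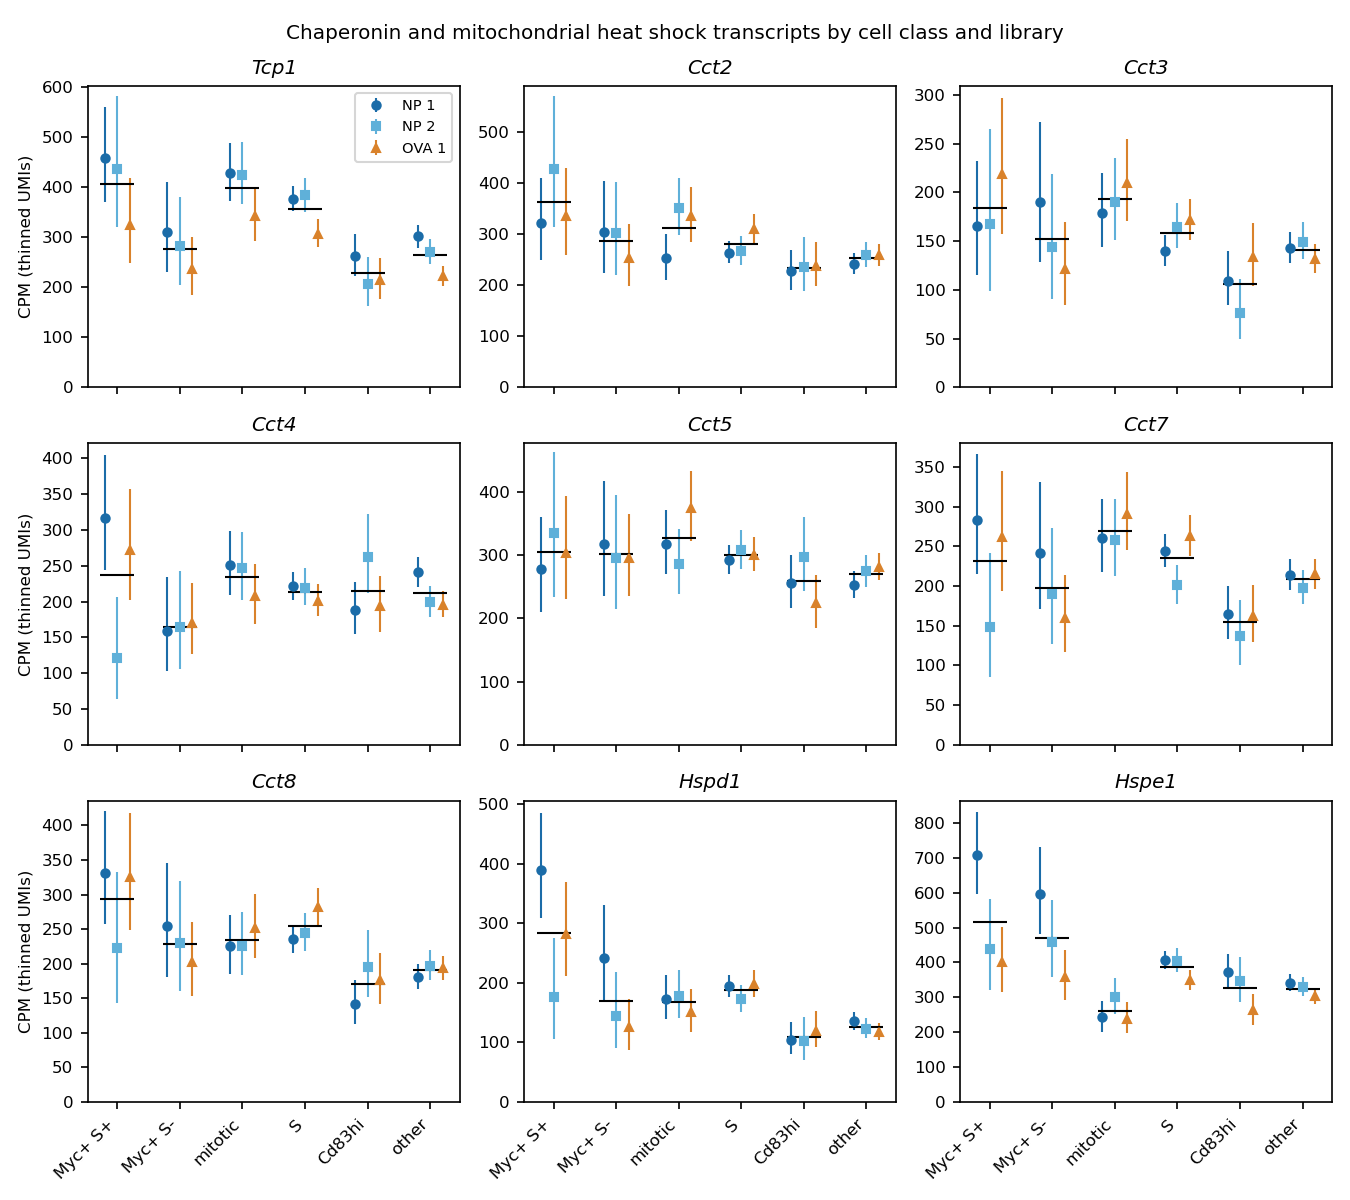
Level of each measured gene (CPM of thinned UMIs, vertical axis) in 6 cell classes (Myc+ S+, Myc-positive with S UMIs; Myc+ S-, Myc-positive without; Cd83hi, Cd83-high noncycling), with 1 point per library, exact 95% Poisson intervals for counting error and a black bar at the mean of the 3 libraries. Hspe1 is lowest in mitotic cells and Tcp1, Cct3 and Cct7 are lowest in Cd83-high cells. Hspd1 and Hspe1 scatter widely between libraries in the Myc-positive classes, as does Cct4 in Myc-positive cells with S UMIs.

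Myc-positive cells without S UMIs differed from Myc-undetected cells without S UMIs in 1 member, the mitochondrial lid Hspe1. Hspe1 stood at 597 CPM in NP 1, 459 in NP 2 and 358 in OVA 1 in Myc-positive cells, against 336, 327 and 289 in Myc-undetected cells. Every Myc-positive value was above every Myc-undetected one, which was also so for Cct5, and the gap for Hspe1 was widest in NP 1. The Hspe1 log2 fold change was 0.54 ± 0.12 (SE), with an edgeR adjusted p = 0.00509. Hspd1, the chamber, stood at 241, 144 and 125 CPM in Myc-positive cells against 134, 127 and 120 in Myc-undetected cells, a log2 fold change of 0.37 ± 0.18 (edgeR adjusted p = 0.512), with the libraries overlapping.

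No CCT subunit passed in that comparison, where 1 of 9 members passed against 1.6% of all 7854 genes tested, 1.17% higher and 0.433% lower. Cct4, at 159, 164 and 170 CPM in Myc-positive cells against 232, 214 and 197 in Myc-undetected cells, had the lowest log2 fold change, -0.35 ± 0.17 (edgeR adjusted p = 0.469). Its thinned values, from 25, 25 and 49 UMIs in Myc-positive cells, were lower there in 3 of 3 libraries. In unthinned counts of the same cells Cct4 was at 273, 255 and 188 CPM in Myc-positive cells, against 249, 233 and 221. On that count it was higher in NP 1 and NP 2 and lower in OVA 1. The other 6 subunits had log2 fold changes from -0.13 (Cct7) to 0.21 (Cct8). The median log2 fold change of the 9 members was 0.14, beside -0.01 over all genes. The Hspe1 call was lost without library as a block, and it needed NP 1: without that library the log2 fold change was 0.42 (edgeR adjusted p = 0.223). With another seed for thinning Hspd1 passed as well, at 0.73 (edgeR adjusted p = 0.0146).

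Genes around the chaperonins were read from lists, beside 1.17% higher and 0.433% lower of all 7854 genes. Of 24 MYC targets tested, 8 were higher in Myc-positive cells without S UMIs and none lower, led by Srm (spermidine synthase, log2 fold change 1.37), Gnl3 (nucleolar GTPase, 0.92) and Nop58 (snoRNP core protein, 0.85). Of 21 cytosolic heat shock genes, 1 was higher, the HSP70 co-chaperone Dnajb1 (0.70), and of 12 ER chaperones 1 was higher, Hspa5 (BiP, 0.46). Timm23, a subunit of the inner membrane translocase, was the 1 of 19 import genes called (0.62). Of 17 mitochondrial chaperones and proteases other than the pair, of 12 prefoldin and CCT cofactors and of 9 actin and tubulin genes, 0 passed. Other markers moved with Myc too. Of 9 light zone genes 6 were higher, of 7 genes of memory or naive B cells 3 were higher (summed level 889, 682 and 1137 CPM in Myc-positive cells, against 612, 608 and 764), and of 10 germinal center B markers 4 were lower. NK cell genes summed to 387, 0 and 313 CPM in Myc-positive cells, against 0.646, 8.25 and 31.5, with up to 5 of 6 genes seen in a library. Myeloid genes summed to 152, 203 and 177, against 272, 940 and 2811, with 6 of 7 tested lower. Without the 67 cells rich in such genes Hspe1 was at 0.54 (edgeR adjusted p = 0.000535), and the part of light zone and memory or naive genes in that difference was not tested.

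Among cells with S UMIs the member that passed was Hspd1. It stood at 390 CPM in NP 1, 177 in NP 2 and 283 in OVA 1 in Myc-positive cells, against 192, 173 and 195 in Myc-undetected cells. The NP 2 value rested on 19 thinned UMIs and lay inside the range of Myc-undetected cells. In unthinned counts of the same cells Hspd1 was at 426, 282 and 291 CPM in Myc-positive cells, against 226, 181 and 215, without overlap. In thinned counts its log2 fold change was 0.61 ± 0.16 (edgeR adjusted p = 0.0400). Of 9 members 1 passed, against 0.675% of 7854 genes, 0.484% higher and 0.191% lower. Hspe1 stood at 707, 437 and 400 in Myc-positive cells against 396, 396 and 341 in Myc-undetected cells, with a log2 fold change of 0.42 ± 0.12 that did not pass (edgeR adjusted p = 0.106).

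The Hspd1 call was sensitive to single libraries, to the library block and to the random draw of UMIs, and DESeq2 did not make it (log2 fold change 0.61, adjusted p = 0.312). Without NP 1 the log2 fold change was 0.34 (edgeR adjusted p = 0.879), and without NP 2 or without OVA 1 both Hspd1 and Hspe1 passed, at 0.80 and 0.58 or at 0.70 and 0.55. With another seed for thinning Hspd1 was at 0.38 (edgeR adjusted p = 0.653). The 7 ring subunits had log2 fold changes from -0.07 (Cct5) to 0.24 (Cct2) and none passed, although Cct2, at 322, 428 and 336 in Myc-positive cells against 265, 281 and 315 in Myc-undetected cells, did not overlap. The median over members was 0.18, beside -0.06 over all genes. Of the lists, 5 of 24 MYC targets were higher (Gnl3 at 1.10, Srm at 1.06, and Ldha, lactate dehydrogenase A, at 0.48), as were Dnaja2, an HSP70 co-chaperone (0.64), and Hspa5 (0.66). Markers of other states moved with Myc here too: 6 of 9 light zone genes were higher, among them Egr3 (3.88) and Il4i1 (1.64), 1 of 7 genes of memory or naive B cells was higher (Fcer2a at 0.80) and 1 of 10 germinal center B markers was lower (S1pr2 at -0.75). Their part in the Hspd1 difference was not tested.

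**Figure D3:**
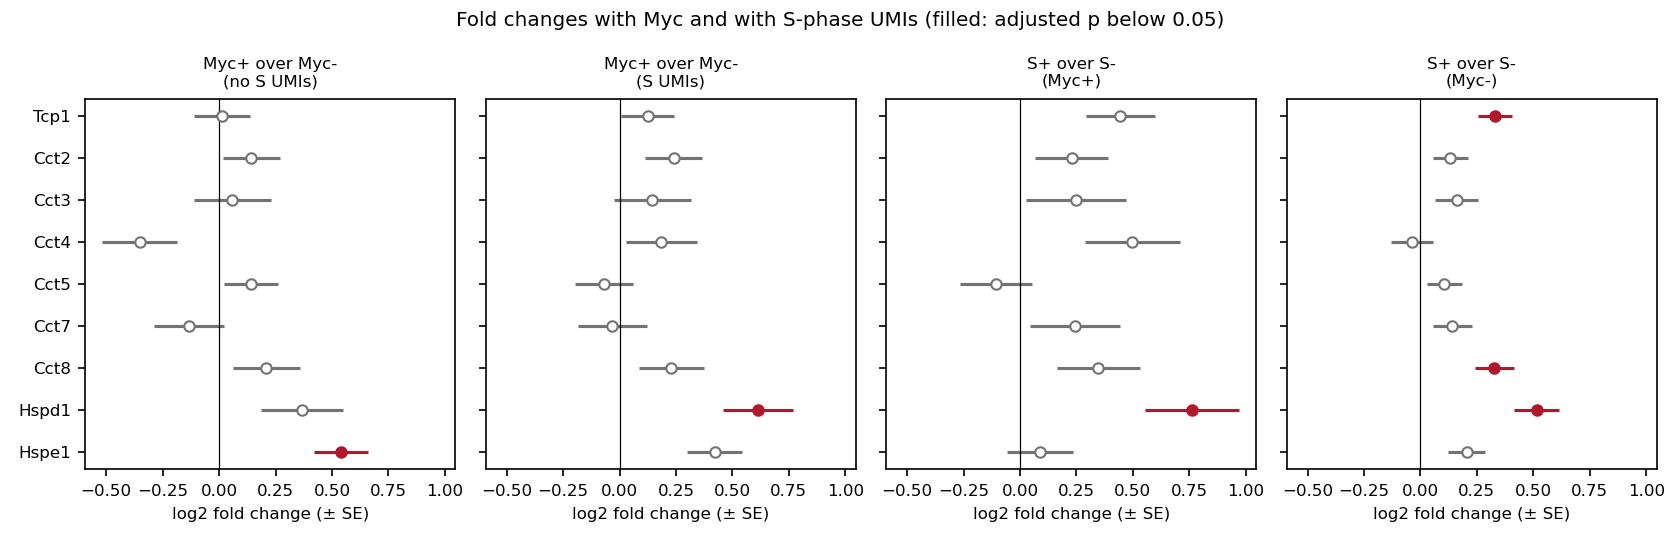
Log2 fold changes (± SE, horizontal axis) of the 9 measured genes with Myc (left panels) and with S UMIs (right panels), where Myc+ and Myc- are cells with and without a Myc UMI and S+ and S- are cells with and without S UMIs; filled points passed at an edgeR adjusted p under 0.05. With Myc, Hspe1 passes in cells without S UMIs (0.54) and Hspd1 in cells with S UMIs (0.61). With S UMIs, Hspd1 passes in Myc-positive cells (0.76), and Tcp1, Cct8 and Hspd1 pass in Myc-undetected cells.

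Among cells with no Myc UMI, Tcp1, Cct8 and Hspd1 were higher where replication marks were seen. In Myc-undetected cells with S UMIs, against those without, Tcp1 stood at 374, 383 and 312 CPM in NP 1, NP 2 and OVA 1, against 312, 283 and 231. Cct8, another ring subunit, stood at 236, 233 and 278 against 177, 206 and 196. Hspd1 stood at 192, 173 and 195 against 134, 127 and 120. For Cct8 and Hspd1 every value with S UMIs was above every value without, and Tcp1 did so narrowly. This was also so for Cct2, Cct3, Cct5 and Hspe1, which did not pass. The share of all genes without overlap was not counted, so this does not set the members apart.

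The log2 fold changes were 0.33 ± 0.08 for Tcp1, 0.33 ± 0.09 for Cct8 and 0.51 ± 0.10 for Hspd1 (edgeR adjusted p = 0.000376, 0.00269 and 4.4e-05). So 3 of 9 members passed, all higher, where 30.3% of all 7854 genes passed in either direction and 15% were higher and 15.4% lower. The share of members was close to the background, and 0 members passed without library as a block. Hspe1, at 396, 396 and 341 with S UMIs against 336, 327 and 289 without, had a log2 fold change of 0.20 ± 0.08 (edgeR adjusted p = 0.0513). The remaining subunits, Cct2, Cct3, Cct4, Cct5 and Cct7, had log2 fold changes from -0.04 (Cct4) to 0.16 (Cct3).

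Clients and partners of the chaperonins were also called, in a comparison where 15% of all 7854 genes were higher and 15.4% lower. The cofactor, other mitochondrial chaperone and import lists below held no larger share of called genes than the 30.3% over all genes. Of 9 actin and tubulin genes, 6 were higher and none lower, led by Tuba1b (1.76), Tubb5 (1.44) and Tubg1 (gamma-tubulin, 1.36). Of 21 cytosolic heat shock genes, 9 were higher and 1 lower, led by Hsp90aa1 (inducible HSP90, 0.78), Hspa14 (a ribosome-associated HSP70, 0.65) and Fkbp4 (an HSP90 co-chaperone, 0.57). Pfdn5, a prefoldin subunit, was the 1 of 12 cofactors called and was lower (-0.42). Of 17 other mitochondrial chaperones and proteases, 4 were higher and 1 lower, among them Clpb (0.72), Hscb (-0.52) and Lonp1 (0.45), and of 19 import genes 4 were higher, led by Timm50 (0.75), Timm8a1 (0.72) and Tomm40 (0.42). ER chaperones split, with 4 higher and 1 lower of 12 (Sdf2l1 at 0.84, Pdia4 at -0.77, Creld2 at 0.47), and 17 of 24 MYC targets were higher (Ptma at 1.01, Srm at 0.90, Pa2g4 at 0.88). Markers of other states moved as well. Of 18 G2 and M phase genes 17 were higher with S UMIs (median log2 fold change 0.88), so the split does not isolate replication from the rest of the cycle. Lower with S UMIs were 7 of 7 genes of memory or naive B cells, 8 of 9 light zone genes and 6 of 7 myeloid genes. Without the 67 cells Hspd1 was at 0.55. Depth differed too, with median totals before thinning of 8131.5 to 11186.5 UMIs with S UMIs, against 5301 to 7215 without. The part of depth and of the G2 and M phase, memory or naive and light zone lists in the member differences was not tested.

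In Myc-positive cells the same split by S UMIs called 1 of 9 members, against 4.79% of 7854 genes, 2.34% higher and 2.44% lower. Hspd1 stood at 390, 177 and 283 CPM with S UMIs against 241, 144 and 125 without, a log2 fold change of 0.76 ± 0.21 (edgeR adjusted p = 0.0170), higher in 3 of 3 libraries although the groups overlapped. Tcp1 stood at 459, 437 and 325 with S UMIs against 311, 282 and 237 without, with no overlap, and had a log2 fold change of 0.44 ± 0.15 (edgeR adjusted p = 0.0847). Cct4 was the least even, at 317, 121 and 272 with S UMIs against 159, 164 and 170 without. The remaining members had log2 fold changes from -0.10 (Cct5) to 0.35 (Cct8).

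That Hspd1 call was lost without library as a block, without NP 1 (log2 fold change 0.78, edgeR adjusted p = 0.0743), without OVA 1 (0.60, edgeR adjusted p = 0.298) and with another seed for thinning, where the value was 0.12 (edgeR adjusted p = 0.885). Scaled by all thinned UMIs, the median of all genes was 0.05, against -0.06 with TMM. On that scale Tcp1 passed as well, at 0.55, and 67.4% of all called genes were higher, against 48.9% with TMM. Of the lists, 3 of 9 actin and tubulin genes were higher (Tuba1b at 1.68, Tubb5 at 1.10, Tubb4b at 0.83), Hsp90aa1 was higher (0.72), Pfdn5 was lower (-0.57) and 6 of 24 MYC targets were higher (Ptma at 0.76, and Nme1 and Pa2g4 at 0.70 each). Of other markers, 6 of 18 G2 and M phase genes were higher, and 3 of 9 light zone genes and 5 of 7 genes of memory or naive B cells were lower. Depth differed with the split: cells with S UMIs had median totals of 8834.5 to 11776 UMIs before thinning, against 6077 to 9133 without. The part of depth and of these markers in the result was not tested.

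Whether the S difference depended on Myc was tested as an interaction. By edgeR 0 of 9 members passed, against 0.0127% of 7854 genes (1 gene, lower), and DESeq2 also called 0 members. At an unadjusted p under 0.05 there was 1 member, Cct4, with a difference of log2 fold changes of 0.54 ± 0.23 (edgeR adjusted p = 0.981). That value rested on few thinned Cct4 UMIs, with 13 in Myc-positive cells with S UMIs of NP 2. For Hspd1 the difference was 0.25 ± 0.23 and for Hspe1 it was -0.12 ± 0.17.

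Mitotic cells held more of several ring subunits than Cd83-high noncycling cells. Tcp1 stood at 428, 425 and 343 CPM in mitotic cells, against 262, 207 and 214 in Cd83-high cells. Cct3 stood at 179, 190 and 209 in mitotic cells, against 109, 75.9 and 133. Cct7 stood at 261, 258 and 291 in mitotic cells, against 164, 137 and 162. For these 3 subunits every mitotic value was above every Cd83-high value, as it was for Cct2, Cct8 and Hspd1. The share of all genes that did so was not counted, so this does not set the members apart.

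The log2 fold changes were 0.65 ± 0.11 for Tcp1, 0.67 ± 0.16 for Cct3 and 0.66 ± 0.13 for Cct7 (edgeR adjusted p = 8.9e-07, 0.000375 and 3.4e-05). Cct8, at 225, 226 and 251 in mitotic cells against 142, 196 and 176 in Cd83-high cells, had a smaller log2 fold change of 0.35 ± 0.13 (edgeR adjusted p = 0.0392). The remaining ring members did not pass. Cct2 was at 253, 350.3 and 335 in mitotic cells against 227, 236 and 238 in Cd83-high cells, with a log2 fold change of 0.27 ± 0.12 (edgeR adjusted p = 0.0670). Cct5 was at 318, 287 and 375 in mitotic cells against 256, 298 and 224 in Cd83-high cells, with a log2 fold change of 0.22 ± 0.11 (edgeR adjusted p = 0.142). Cct2 did not overlap between the groups and Cct5 did. Cct4 was at 251, 246 and 207 in mitotic cells against 188, 263 and 193 in Cd83-high cells, with a log2 fold change of 0.04 ± 0.14.

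The mitochondrial pair, whose annotated 5' ends overlap, split in mitotic cells. Hspd1 stood at 173, 179 and 151 CPM in mitotic cells, against 104, 102 and 120 in Cd83-high cells, a log2 fold change of 0.49 ± 0.17 (edgeR adjusted p = 0.0165). Hspe1 stood at 243, 301 and 239 in mitotic cells, against 373, 347 and 263 in Cd83-high cells, a log2 fold change of -0.46 ± 0.12 (edgeR adjusted p = 0.00176). Chamber transcripts were higher and lid transcripts lower in 3 of 3 libraries, without overlap for Hspd1 and with overlap for Hspe1. The change in Hspe1 minus that in Hspd1 was -1.35 on the log2 scale in NP 1, -1.01 in NP 2 and -0.47 in OVA 1, a difference that was not tested.

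In all, 5 members were higher and 1 lower of 9, where 32.5% of the 6742 genes tested passed, 16% higher and 16.5% lower. Without library as a block 3 members passed, all higher. The median log2 fold change was 0.35 for the members, beside -0.01 for all genes. Scaled by all thinned UMIs, the median of all genes was 0.12. On that scale 7 members were higher, Cct2 (0.41) and Cct5 (0.35) included, Hspe1 was still lower (-0.33), and 62.6% of all called genes were higher, against 49.3% with TMM. Before thinning, Hspe1 averaged 3.50 ± 0.69 UMIs per mitotic cell and 2.31 ± 0.29 per Cd83-high cell, and with all UMIs kept its log2 fold change was -0.10 (edgeR adjusted p = 0.439). In unthinned counts of the same cells Hspe1 was at 344, 369.5 and 285 CPM in mitotic cells, against 397, 369.9 and 321 in Cd83-high cells, so in NP 2 its share of all UMIs was nearly equal.

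Single libraries bore on 3 of these calls. Without NP 1, Hspe1 was at -0.30 (edgeR adjusted p = 0.137), Hspd1 at 0.41 (adjusted p = 0.133) and Cct8 at 0.24 (adjusted p = 0.336), while Cct2 passed at 0.39 (adjusted p = 0.0445). Without NP 2, Hspd1 was at 0.38 (edgeR adjusted p = 0.140) and Cct5 passed at 0.36, and without OVA 1, Cct8 was at 0.35 (edgeR adjusted p = 0.112). With another seed for thinning Hspd1 was at 0.24 (edgeR adjusted p = 0.296) and Cct8 at 0.17 (edgeR adjusted p = 0.326). Myeloid genes moved with the class: their summed level in mitotic cells was 167 CPM in NP 1, 3010 in NP 2 and 2787 in OVA 1, against 152, 196 and 230 in Cd83-high cells. In those sums 1, 8 and 8 of 14 genes had UMIs in mitotic cells and 3, 2 and 7 in Cd83-high cells, and 7 of 8 tested were higher. Without the 67 cells rich in such genes the members were again 5 higher and 1 lower, with Hspe1 at -0.48 and Hspd1 at 0.47.

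**Figure D4:**
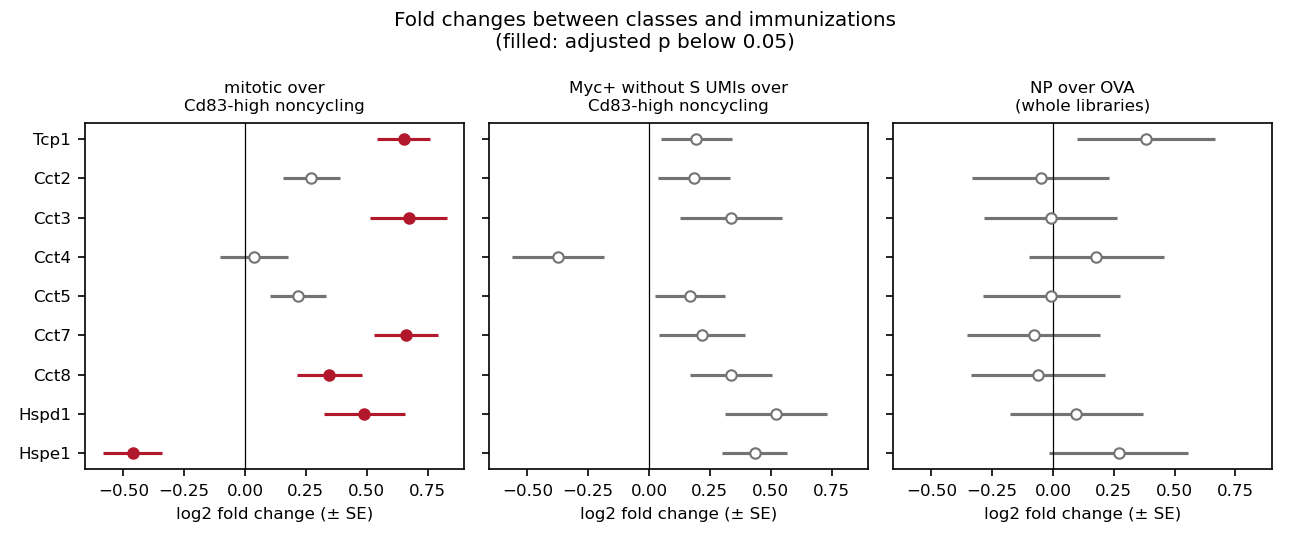
Log2 fold changes (± SE, horizontal axis) of the 9 measured genes in mitotic over Cd83-high noncycling cells, in Myc-positive cells without S UMIs over Cd83-high noncycling cells, and in NP over OVA libraries; filled points passed at an edgeR adjusted p under 0.05. In the left panel Tcp1, Cct3, Cct7, Cct8 and Hspd1 are higher and Hspe1 is lower (-0.46), and in the other panels no member passes.

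Actin and tubulin, the ring's best-known clients, were called in both directions. Over all 6742 genes tested 16% were higher and 16.5% lower, the shares to set beside each list. Of 9 actin and tubulin genes, 5 were higher and 1 lower in mitotic cells, led by Tubb4b (log2 fold change 3.08), Tuba1c (2.93) and Tuba1b (2.54). Of 12 prefoldin and CCT cofactors, 3 were higher and 3 lower, led by Vbp1 (a prefoldin subunit, 1.37), Txndc9 (a thioredoxin-like CCT partner, -1.04) and Pfdn4 (0.71). Of 21 cytosolic heat shock genes, 7 were higher and 1 lower, led by Hsp90aa1 (1.05), Dnajc2 (a ribosome-bound co-chaperone, 0.89) and Ptges3 (the HSP90 co-chaperone p23, 0.82).

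ER chaperones went the other way, with none higher and 5 lower of 12 (Pdia4 at -1.66, Calr at -0.92, Pdia3 at -0.58). Of 16 other mitochondrial chaperones and proteases, 1 passed, the iron-sulfur co-chaperone Hscb, which was lower (-0.93), while 4 of 19 import genes were higher (Timm50 at 0.62, Tomm22 at 0.49, Timm17b at 0.47). MYC targets split, with 5 higher and 3 lower of 23 (Ran at 1.49, Ptma at 1.49, Ppan at -0.82), and Ddit3, a stress factor, was the 1 of 4 stress transcription factors called (-1.70). In mitotic cells 18 of 18 G2 and M phase genes were higher and 9 of 9 light zone genes lower. The classes were chosen by mitotic genes and Cd83, so this is no independent check of them. Of 6 genes of memory or naive B cells 5 were lower, and of 10 germinal center B markers 1 was higher and 6 lower. Median depth before thinning also differed, from 7587 to 11560 UMIs in mitotic cells and from 4842 to 6575 in Cd83-high cells. The part of these markers and of depth in the member differences was not tested.

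Myc-positive cells without S UMIs were also set against Cd83-high noncycling cells, the same Cd83-high sums as in the mitotic comparison. By edgeR 0 of 9 members passed, against 2.06% of 6742 genes (1.2% higher, 0.86% lower), with 3 members at an unadjusted p under 0.05 and 1 called by DESeq2. Hspd1 stood at 241, 144 and 125 CPM in Myc-positive cells against 104, 102 and 120 in Cd83-high cells, and its log2 fold change was 0.52 ± 0.21 (edgeR adjusted p = 0.225). Hspe1 stood at 597, 459 and 358 in Myc-positive cells against 373, 347 and 263 in Cd83-high cells, and its log2 fold change was 0.43 ± 0.13 (edgeR adjusted p = 0.0686). DESeq2 called Hspe1, at 0.47 (adjusted p = 0.0420). Of the lists, 6 of 23 MYC targets were higher (Srm at 1.09, Nop58 at 0.72, Ran at 0.71), as were Hsp90aa1 (0.56), Tuba1b (0.78) and Tubb5 (0.62). Of 18 G2 and M phase genes 10 were also higher, and 5 of 10 germinal center B markers were lower. Cells past the mitotic threshold made up 4.76%, 11.5% and 6.96% of the Myc-positive cells in NP 1, NP 2 and OVA 1, against 0% of Cd83-high cells by their definition, and their part in these differences was not tested.

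Between antigens the members did not pass in either direction. By edgeR 0 of 9 members passed, against 0.229% of 10470 genes (0.0573% higher, 0.172% lower), with 0 at an unadjusted p under 0.05 and 0 called by DESeq2. Tcp1 stood at 343 CPM in NP 1 and 323 in NP 2, against 261 in OVA 1, a log2 fold change of 0.38 ± 0.28 (edgeR adjusted p = 0.937). Hspe1 stood at 380 and 360 in the NP libraries, against 313 in OVA 1, a log2 fold change of 0.27 ± 0.28, and Hspd1 at 169 and 146 against 150. With 1 OVA library, and with antigen and sorting gate changed together, the antigen cannot be told apart from the library. Cct6b, a paralog of Cct6a best known from testis, had no more than 2 thinned UMIs in any class of a library.

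The members did not vary as one block. Pearson correlations of log2 levels were taken over 18 sums (6 classes in 3 libraries, which share library and depth) and are given as a description. Cct8 and Hspd1 were the closest pair (r = 0.89), followed by Cct3 and Cct7 (0.76) and Tcp1 and Hspd1 (0.71). Hspd1 and Hspe1, with their shared promoter, had r = 0.62, and Hspe1 had r between -0.05 and 0.05 with Cct3, Cct4, Cct5 and Cct7. Cct4 and Cct2 had r = -0.23.

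**Figure D5:**
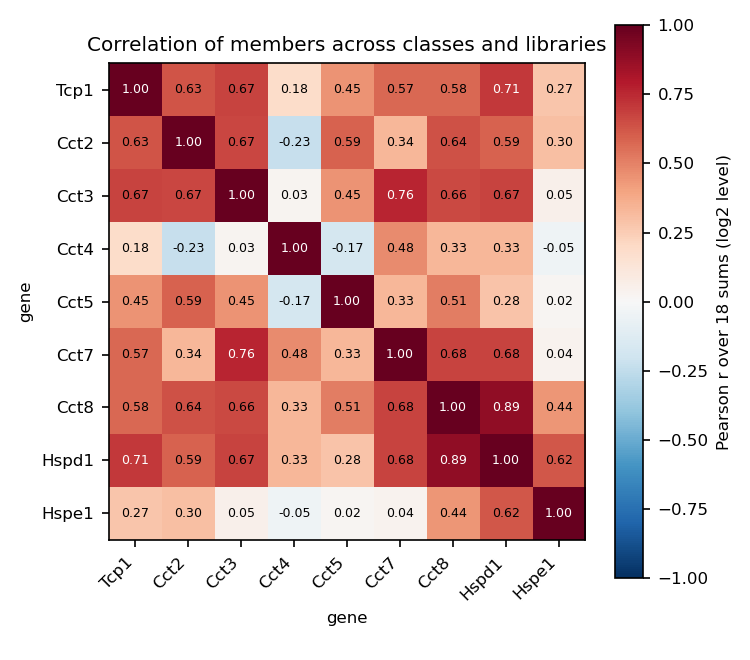
Pearson correlation of log2 levels between each pair of the 9 measured genes over 18 sums (6 cell classes in 3 libraries), from -1 (blue) to 1 (red). Cct8 and Hspd1 are most alike (0.89), and Hspe1 and Cct4 have the lowest values with most other members.

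Against the mean of the other members, r was 0.89 for Hspd1 and for Cct8, 0.74 for Tcp1, 0.73 for Cct3, 0.70 for Cct7, 0.63 for Cct2, 0.43 for Cct5, 0.29 for Hspe1 and 0.15 for Cct4. Among 2885 genes with a mean level of at least 50 CPM, those outside the list most like the members' mean were Prdx1 (peroxiredoxin, r = 0.92), Snu13 (0.91), Ybx1 (0.91), Hnrnpf (0.90), Snrpa1 (0.90), Pkm (pyruvate kinase, 0.90), Snrpf (0.89) and Pgd (a pentose phosphate enzyme, 0.89).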

How the data were processed

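The authors deposited a matrix of UMI counts per gene and cell, made with Cell Ranger on mm10 per the submitters' processing notes; versions, strand setting and cell filters are not given in the sources used here. Members, lists and classes were chosen with earlier results of these data known, and all members were named, with up to 3 called genes per list and comparison and the 8 genes most like the members. No columns lacked a sample. The 225 immunoglobulin genes and 14 class genes were removed, thinned counts were summed per library and class (12 sums for the Myc and S split, 18 for the 6 classes, 3 whole libraries), and edgeR 4.0.16 (R 4.3.3; TMM, filterByExpr) ran quasi-likelihood tests with Benjamini-Hochberg adjustment over all genes, threshold 0.05. All classes of a library come from 1 capture, so library was a block. The code was tested on simulated data. No doublet caller was run; 130 cells with over 1 productive heavy chain in the matched immunoglobulin calls were left out in an alternative. Other alternatives were DESeq2 1.42.0, RLE factors, no filter on low counts, other thinning depths and seed, stricter cell filters, other thresholds, and, chosen after seeing the data, the 20-UMI marker filter and scaling by all thinned UMIs. Correlations used log2 of the level plus 10. Bulk immunoglobulin libraries were not used here.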

Additional observations from a re-analysis of the deposited data

How the results depend on the processing

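No called member changed sign in any of 211 alternative values of the 12 calls. Cct3 in mitotic cells kept its call in 19 of 19 alternatives, Tcp1 and Cct7 in 18 each, Hspe1 in 16, Hspd1 in 10 and Cct8 in 9; in Myc-undetected cells with S UMIs, Tcp1, Cct8 and Hspd1 kept theirs in 15 of 16 each. Hspe1 with Myc kept its call in 10 of 17, and Hspd1 with Myc or with S UMIs in Myc-positive cells in 10 of 16 each. The cause of each change was not tested.

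The number of called members moved as follows. With no replicate block (classes not paired by library) it was 0 for Myc without S UMIs, 0 for Myc with S UMIs, 0 and 0 for S UMIs in Myc-positive and Myc-undetected cells, and 3 for mitotic cells. Leaving out each library in turn gave 0 to 1 for Myc without S UMIs, 0 to 2 for Myc with S UMIs and 0 to 1 for S UMIs in Myc-positive cells. With all UMIs kept it was 2, 9, 9 and 8 for the Myc and S comparisons; there Cct5 (0.21) and Cct7 (0.19) with Myc among cells with S UMIs, and Cct5 (0.37) with S UMIs in Myc-positive cells, were called with the other sign from that in thinned counts. Thinning to 1500 UMIs gave 0, 0, 0, 7 (6 higher, 1 lower) and 2 in mitotic cells, and thinning to 4000 gave 0 for Myc without S UMIs. Another seed gave 2, 0, 0 and 6, and 1 for Myc-positive against Cd83-high cells. The stricter cell filter gave 0 for the first 3 comparisons. For Myc without S UMIs, removing all 3140 cells with 2 or more UMIs of non-B markers gave 0, as did at least 2 Myc UMIs. That removal counted Cst3, seen in 67.7% of cells, so a removed cell need not be of another type. For Myc with S UMIs, DESeq2 gave 0, and RLE, heavy chain filtering, the 20-UMI filter and scaling by all thinned UMIs gave 2 each. The 20-UMI filter gave 6 in Myc-undetected cells, and scaling by all thinned UMIs gave 2 in Myc-positive cells with S UMIs. For Myc-positive against Cd83-high cells, DESeq2, RLE, heavy chain filtering and scaling by all thinned UMIs gave 1 each. Over all alternatives the number of called genes ran from 7 to 314 for Myc without S UMIs (126 as reported), 2 to 975 with S UMIs (53), 97 to 3213 for S UMIs in Myc-positive cells (376), 560 to 5020 in Myc-undetected cells (2381), 0 to 7 for the interaction (1), 1050 to 3732 for mitotic cells (2190), 18 to 160 for Myc-positive against Cd83-high cells (139) and 8 to 240 for NP against OVA (24).

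NP against OVA without either NP library had no residual degrees of freedom, so gave values with no test. Myc-positive classes held as few as 13 UMIs of a member in a library, which limits precision there.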
